A study of Mus musculus with 44 samples.

Results

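A set of 6 long noncoding RNAs was described in this data set, Malat1, Neat1, Miat, Gas5, Snhg1 and Snhg12, chosen by a rule on gene symbols, with earlier results of these data known, as 6 of the 46831 genes of the count table. Malat1, Neat1 and Miat are known as nuclear transcripts, and Gas5, Snhg1 and Snhg12 are hosts of small nucleolar RNAs (snoRNAs). SLIM-seq, a low-input sequencing of RNA pulled down with an antibody to N6-methyladenosine (m6A), was measured as read counts per gene in 44 libraries, each an m6A pull-down (IP) or its input RNA. The cells came from the long bones of the lower limbs of C57Bl6 mice of either sex at postnatal day 3, were gated as negative for CD45, Ter119 and Tie2, and were then sorted by CD51, Thy1, 6C3, CD105 and CD200. The WT group had 2 IP and 2 input libraries from each of 8 populations: the stem and progenitor populations SSC, pre-BCSP and BCSP (bone, cartilage and stromal progenitors), and the downstream populations PCP (pro-chondrogenic progenitors), THY, BLSP (B-cell lymphocyte stromal progenitors), 6C3 (stroma) and HEC (hepatic leukemia factor expressing cells). The group labelled Mettl3cko had 2 IP and 2 input libraries from each of SSC, pre-BCSP and BCSP. By the methods of the study, Mettl3cko mice were Mettl3 fl/fl;Col2a1-Cre and WT mice were Mettl3 fl/fl without Cre, so that both carried the floxed allele. Col2a1-Cre drives recombination in cells that express type II collagen or descend from such cells, and not in every cell of a sort. The genotype field read wild type for all 44 libraries, and the Mettl3cko label was taken from titles and library names. The sources used here do not say whether mice were pooled for a library.

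Malat1 is an abundant transcript of nuclear speckles, where splicing factors are stored, and a known carrier of m6A. Neat1 is the scaffold RNA of paraspeckles, nuclear bodies built from RNA-binding proteins, and Miat is a nuclear transcript described in muscle, neurons and vessels. Gas5, Snhg1 and Snhg12 carry snoRNAs in their introns, and snoRNAs guide the chemical modification of ribosomal RNA. The spliced host RNAs are known for short half-lives because translation exposes them to nonsense-mediated decay, and Gas5 is known to accumulate when growth and translation slow. METTL3 is the catalytic subunit of the complex that writes m6A.

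Total counts ran from 19795666 to 44046651 in the WT input libraries and from 16480027 to 35856651 in the WT IP libraries, and the Mettl3cko totals lay within these ranges. Levels are given as CPM, the usual unit of reads scaled by library size, and the log2 CPM values of replicates correlated across genes at 0.958 to 0.984 for inputs, 0.924 to 0.949 for WT IP and 0.845 to 0.883 for Mettl3cko IP, so the Mettl3cko pull-downs repeated one another less closely. Mettl3 itself, the targeted gene, was not lower in the libraries labelled Mettl3cko: its input level was 16.5 to 23.1 CPM there and 12.2 to 19.9 CPM in WT stem and progenitor libraries. Counts over the whole gene do not isolate the deleted exons, so that these levels check neither the label nor the deletion. Directions below are those of the libraries labelled Mettl3cko. Of the sort markers, Thy1 was at 17.3 to 34.3 CPM in PCP, THY and BLSP and under 1 CPM elsewhere, and Enpep, which encodes 6C3, was highest in 6C3 and HEC. Hlf, the gene behind the name HEC, had its highest mean in BLSP (5.34 CPM, against 4.26 in HEC), so it did not single out HEC.

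In the genome build GRCm38, Malat1 spans chr19:5795690-5802672 and Neat1 chr19:5824708-5845478, next to each other on the minus strand and each covered by a single block of exons. Miat lies at chr5:112213228-112229395 on the minus strand. The snoRNA hosts are on the plus strand, Gas5 at chr1:161034422-161038539, Snhg1 at chr19:8723475-8726443 and Snhg12 at chr4:132308623-132311024. The annotation places 10 snoRNA genes within Gas5, 8 within Snhg1 and 5 within Snhg12, and all of their rows in the count table stood at 0 in the 44 libraries. Each of these snoRNA genes lies wholly within annotated exons of its host, so the zeros do not show whether snoRNAs were captured. The values below are those of the rows of the host genes, and the snoRNAs themselves were not measured. Miat shares 2260 exon bases with the antisense gene Gm26953, whose counts amounted to 35.9% of those of Miat, and since the strand setting of the counting is not given in the sources used here, reads of these genes cannot be told apart.

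The start sites are shown because genes of this host family are known for starts made of pyrimidines, a feature of the terminal oligopyrimidine mRNAs that encode the translation machinery. The windows, from RefSeq (GRCm38.p6), hold 30 bases before the start and 50 from the start on, read 5′ to 3′ on the gene's strand, and the capitals mark the longest unbroken run of C or T that touches the 10 bases on either side of the start. Neat1 had no entry.
Snhg1, chr19:8723457-8723536, plus strand: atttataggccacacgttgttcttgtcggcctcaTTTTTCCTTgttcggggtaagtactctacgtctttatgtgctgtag
Snhg12, chr4:132308648-132308727, plus strand: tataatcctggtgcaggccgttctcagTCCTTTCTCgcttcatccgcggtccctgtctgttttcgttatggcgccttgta
Gas5, second start, chr1:161035136-161035215, plus strand: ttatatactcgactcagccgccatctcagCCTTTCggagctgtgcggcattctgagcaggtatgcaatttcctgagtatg
Malat1, chr19:5802623-5802702, minus strand: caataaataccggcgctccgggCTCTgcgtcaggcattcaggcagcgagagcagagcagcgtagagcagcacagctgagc
The runs were 9 bases in Snhg1 and Snhg12, and 9.55% of 32851 start sites in RefSeq held a run at least this long. In Snhg1 the run began at base 5 of the transcribed sequence, and in Snhg12 at base -3, before the start. The second start of Gas5 had a run of 6 bases, which 29.2% of starts reached, the upstream start of Gas5 a run of 3, Miat a run of 7 and Malat1 a run of 4.

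m6A is laid down most often at the adenosine of GGACT and its close variants, and the count of these letters shows how much sequence of this kind each transcript offers. The strings searched were GGACT itself, then GGACA with its last base changed, likewise GGACC, and with a changed start GAACT as well as AGACT. The search read the transcript strand only, in the longest annotated transcript of type lincRNA of each gene (GENCODE vM21), and counted each match, also where a match shared an end base with another. The Snhg1 transcript searched, 709 bases long, begins at chr19:8724005, downstream of the RefSeq start shown above. That base lies within the snoRNA gene Gm25855 (chr19:8723993-8724064), and so does the only match found in Snhg1. Sequence of Snhg1 before that base was not searched. Malat1 held 9 GGACT, or 1.289 per kb, Neat1 held 23, or 1.107 per kb, Miat held 19 and Gas5 held 1, and neither Snhg1 nor Snhg12 held any. Over the longest transcripts of 40427 genes with at least 500 bases the median was 0.965 GGACT per kb and 78.9% of genes held at least 1. For all 5 strings the counts were 24 in Malat1, 119 in Neat1, 65 in Miat, 4 in Gas5, 1 in Snhg1 and 5 in Snhg12, or 3.437 per kb in Malat1 and 5.729 in Neat1 against a median of 5.687 over those genes. The windows below, with the string in capitals, set sites of Malat1, whose IP exceeded its input, beside sites of Neat1, whose IP did not, and beside the few strings of the snoRNA hosts.
Malat1, base 1110, chr19:5801546-5801576, minus strand: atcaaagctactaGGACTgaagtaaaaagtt
Malat1, base 1204, chr19:5801452-5801482, minus strand: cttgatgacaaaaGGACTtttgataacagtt
Malat1, base 2922, chr19:5799734-5799764, minus strand: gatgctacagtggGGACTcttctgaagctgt
Neat1, base 347, chr19:5845115-5845145, minus strand: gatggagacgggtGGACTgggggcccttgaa
Neat1, base 400, chr19:5845062-5845092, minus strand: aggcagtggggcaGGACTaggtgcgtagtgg
Gas5, base 351, within chr1:161036001-161036224 across a splice junction, plus strand: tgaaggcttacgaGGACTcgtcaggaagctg
Snhg1, base 3, chr19:8724005-8724024, plus strand: gaGGACCttttcacagacct
Snhg12, base 147, chr4:132308809-132308839, plus strand: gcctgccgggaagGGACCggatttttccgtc
A match is a description of the letters and not a methylated site, and the counts are per gene, so that no m6A could be placed on any of these windows.

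**Figure D1:**
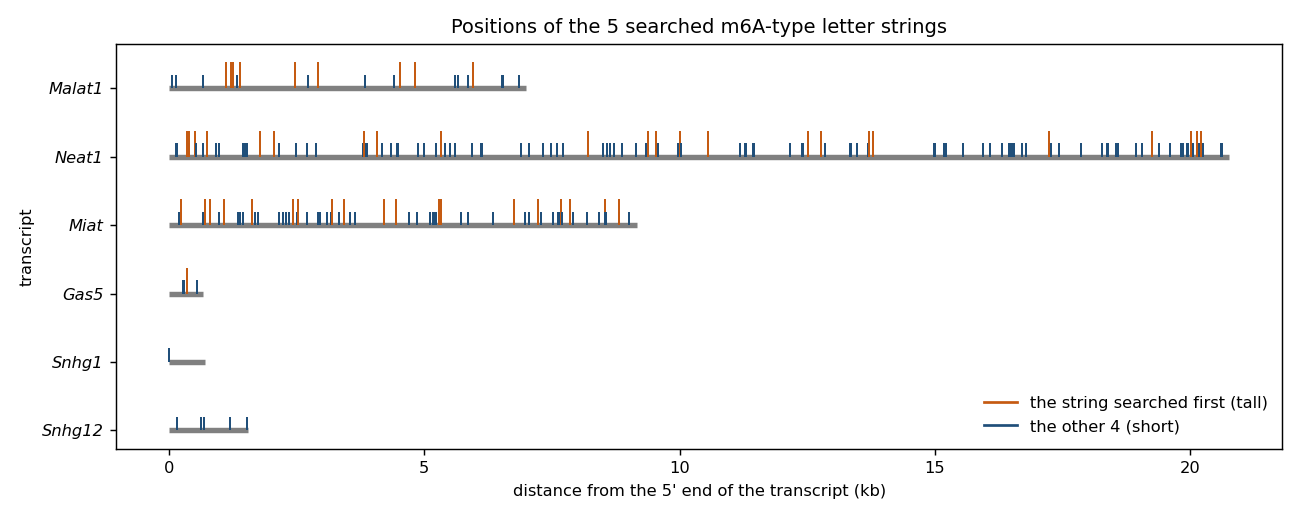
Position of the 5 m6A-type strings along the annotated transcript of each of the 6 lncRNAs, in kb from the 5′ end, with a line for each transcript drawn to its length a tall tick for each GGACT and a short tick for each match of the other strings. Malat1 and Neat1 carry 24 and 119 matches, and the short snoRNA hosts carry between 1 and 5.

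Per length, Malat1 was far more abundant than the other members. Its median input level over the 16 WT libraries was 258 CPM per kb of exons. The levels of the others, on the same scale, were 17.7 for Gas5, 10.7 for Neat1, 3.98 for Snhg1, 0.853 for Snhg12 and 0.105 for Miat. Since the exon blocks of the snoRNA hosts include retained introns, the level per kb of one spliced transcript was also taken, and it was 100.1 for Gas5, 16.7 for Snhg1 and 1.33 for Snhg12, which moved Snhg1 above Neat1 in the order. The Snhg1 transcript used starts inside the gene, so this level of Snhg1 is uncertain. Neat1 has 4 annotated transcripts and was divided by a length of 20.771 kb. Reads of its transcripts could not be told apart, so its level per kb and its place in the order are also uncertain.

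The first comparison asked how the 6 RNAs changed along the hierarchy in input RNA, by edgeR's quasi-likelihood test with Benjamini-Hochberg adjustment over 20060 genes. The snoRNA hosts Gas5, Snhg1 and Snhg12 and the paraspeckle scaffold Neat1 were higher in the stem and progenitor populations, Miat was higher downstream, and Malat1 did not pass. At adjusted p under 0.05, 4 of the 6 members were called higher in stem and progenitor cells, where 23.1% of all genes were, and 1 was called lower, where 28.3% of all genes were. In bulk samples, fewer cells of a type and less RNA per cell cannot be told apart.

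Gas5, the growth-linked snoRNA host, was at 162 and 191 CPM in SSC, 169 and 122 in pre-BCSP and 212 and 132 in BCSP. Among the downstream cells the 6C3 libraries were lowest, at 25.9 and 47.6 CPM, and PCP stood at 44.6 and 42.1, HEC at 68.9 and 45.6, THY at 57.6 and 64.2 and BLSP at 76.4 and 55.03. Every stem and progenitor library lay above every downstream library. The difference was 1.64 on the log2 scale (SE 0.15, edgeR adjusted p = 3.039e-07), or 3.12-fold.

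Snhg1, a host of C/D box snoRNAs, was at 21.6 and 24.9 CPM in SSC, 18.05 and 19.9 in pre-BCSP and 23.0 and 21.9 in BCSP, and its 10 downstream libraries ran from 8.48 to 14.8 CPM with a median of 10.9. The groups did not overlap, and the difference was 0.98 on the log2 scale (SE 0.13, edgeR adjusted p = 1.287e-05). Snhg12, counted at 21 to 187 reads a library, ran from 2.203 to 5.98 CPM in stem and progenitor cells and from 0.641 to 2.43 CPM downstream. Its groups overlapped by the lower pre-BCSP library, and its difference was 1.48 (SE 0.33, edgeR adjusted p = 0.0014).

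Neat1 was at 307 and 304 CPM in SSC, 311 and 329.6 in pre-BCSP and 364 and 344 in BCSP. Downstream, HEC had 151 and 199 CPM, 6C3 175 and 185, THY 186 and 197, PCP 247 and 189.7 and BLSP 178 and 268. The groups did not overlap, and stem and progenitor cells were higher by 0.70 on the log2 scale (SE 0.11, edgeR adjusted p = 6.028e-05). Gas5, Snhg1 and Neat1 were thus the 3 members whose 6 stem and progenitor libraries all exceeded the 10 downstream ones, a pattern of 8.19% of all genes tested.

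Miat was close to the counting limit. It had 12 and 10 reads in SSC, 0 and 1 in pre-BCSP and 0 and 14 in BCSP. Downstream, HEC had 45 and 88 reads, 6C3 67 and 55, PCP 19 and 108, THY 24 and 71 and BLSP 50 and 38. In CPM the groups overlapped, because the lower PCP library (0.400 CPM) lay below the upper SSC and BCSP libraries, so that Miat was not among the 8.33% of genes lower without overlap in stem and progenitor cells. Its mean CPM was 7.65-fold higher downstream, and the fitted difference was -3.71 (SE 0.71, edgeR adjusted p = 0.0003922), a size that depends on the handling of the libraries at 0.

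Malat1 ran from 1538 to 2594 CPM in stem and progenitor cells, with a median of 1844, and from 682 to 2416 CPM downstream, with a median of 1715. The groups overlapped almost fully, and the difference was 0.14 (SE 0.15, edgeR adjusted p = 0.471). The lowest Malat1 value, 682 CPM, was in one 6C3 library, and the other 6C3 library was at 1398.

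Across the 8 populations taken singly, Neat1, Miat, Gas5 and Snhg1 differed at adjusted p under 0.05 in the edgeR test of any difference, as did 40.1% of all genes. The adjusted p was 4.039e-05 for Gas5, 0.001258 for Snhg1, 0.004331 for Neat1, 0.0239 for Miat, 0.05458 for Snhg12 and 0.1228 for Malat1. Ordered by mean input level, Gas5 ran SSC, BCSP, pre-BCSP, BLSP, THY, HEC, PCP and 6C3, and Neat1 ran BCSP, pre-BCSP, SSC, BLSP, PCP, THY, 6C3 and HEC. Most neighbours in these orders could not be separated: the ranges of the 2 libraries overlapped in 5 of 7 neighbouring pairs for Gas5 and Malat1, 6 for Miat, 4 for Snhg1, all 7 for Snhg12 and 3 for Neat1. The steps without overlap in the order of Gas5 were from pre-BCSP to BLSP and from HEC to PCP.

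**Figure D2:**
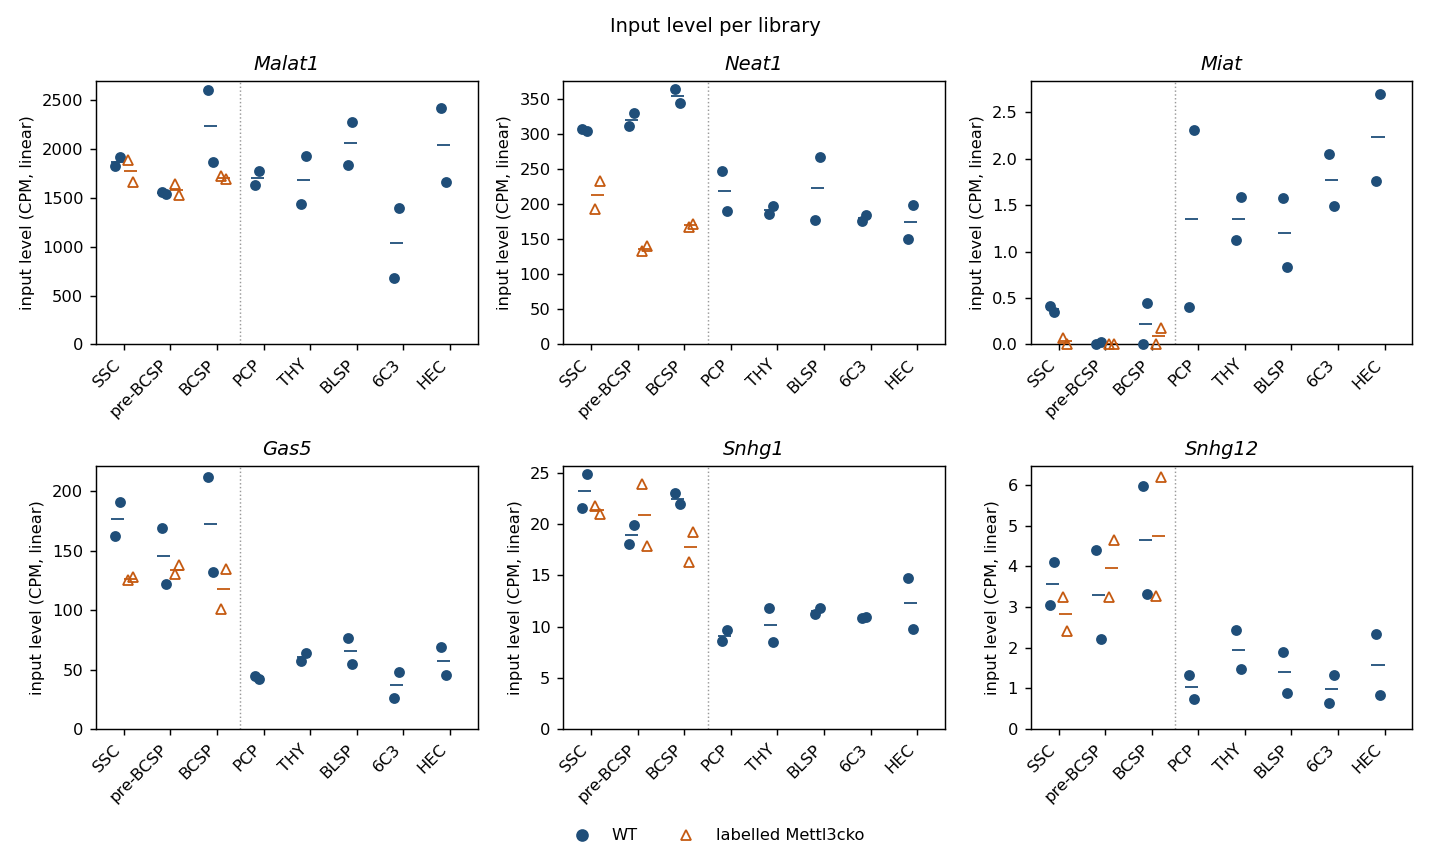
Input level of each lncRNA in CPM, with the axis as labelled in each panel, in the 8 WT populations (filled circles) and in the Mettl3cko libraries of SSC, pre-BCSP and BCSP (open triangles), with a point for each of 2 replicates, a short line for their mean and a dotted line between stem and progenitor and downstream populations. The 6 WT stem and progenitor libraries of Gas5, Snhg1 and Neat1 lie above all 10 downstream ones, and the Mettl3cko libraries of Neat1 lie between 134 and 233 CPM, below the WT libraries of the same populations.

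Sums of blood and bone markers separated the stem and progenitor from the downstream libraries, while endothelial and cartilage sums overlapped. The summed input level of 10 blood cell genes was 6.08 to 17.7 CPM in the WT stem and progenitor libraries and 20.05 to 149.9 CPM downstream, mostly globin transcripts there, with Ptprc, which encodes CD45, at 0 in the stem and progenitor libraries. The sum of 4 endothelial genes was 1.08 to 18.4 CPM and 1.13 to 80.2 CPM in these groups. PCP alone made the upper end, at 78.3 to 80.2 CPM, and the other downstream populations reached at most 9.66 CPM, in THY. Of the skeletal lineages, the sum of 6 cartilage genes was 88893 to 106885 CPM in stem and progenitor cells and 7764 to 98056 downstream, and the sum of 6 bone genes was 7595 to 14821 and 66830 to 144063 CPM. The part of these shifts in the levels of the 6 lncRNAs was not tested.

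The other hosts of snoRNAs and the proteins that bind snoRNAs were read in the same contrast. Of 12 further host genes in the table, 10 were tested, 5 rose in stem and progenitor cells and 1 fell, and their median log2 difference was 0.91 against -0.11 for all genes. Snhg6 (2.84, SE 0.22, edgeR adjusted p = 4.559e-08), Snhg8 (1.998), Epb41l4aos (1.48), Snhg17 (0.90) and Snhg18 (0.73) were higher and Snhg11 was lower (-3.07, SE 1.13). Of 12 snoRNP proteins and assembly factors, 10 rose and 1 fell, with a median of 1.01. The rise was largest on this list for Nhp2l1 (1.81), a protein of the C/D box snoRNP that binds the snoRNA directly, and Nop56 (1.67), a core protein of the same particle, and Nop58 (1.34), the pseudouridine synthase Dkc1 (1.27) and the methyltransferase Fbl (1.13) were also higher, while Naf1, which helps to assemble H/ACA particles, was lower (-0.93).

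The factors of nonsense-mediated decay did not move as one. Of 10 tested, 5 were lower in stem and progenitor cells, led by the helicase Upf1 (-1.40, SE 0.25) and the kinase Smg1 (-1.06) that phosphorylates it, and 2 were higher, Upf3b (0.73) and Smg5 (0.30). Among 15 other lncRNAs described as nuclear, 6 were higher in stem and progenitor cells and 0 were lower, including Kcnq1ot1 (1.29), 2900097C17Rik (0.96) and the imprinted Meg3 (0.48). Among the paraspeckle proteins, Tardbp (0.71), Hnrnpk (0.53) and Pspc1 (0.37) were higher, and of 6 nuclear speckle proteins, Son (0.45) and Srrm1 (0.31) were higher and Srsf1 (-0.73), Srrm2 (-0.51) and Srsf2 (-0.48) were lower. Of 4 nuclear m6A readers, Hnrnpc (0.83) was higher. All of these values are log2 differences in input at adjusted p under 0.05 by edgeR, and the background shares are those given for the 6 members.

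**Figure D3:**
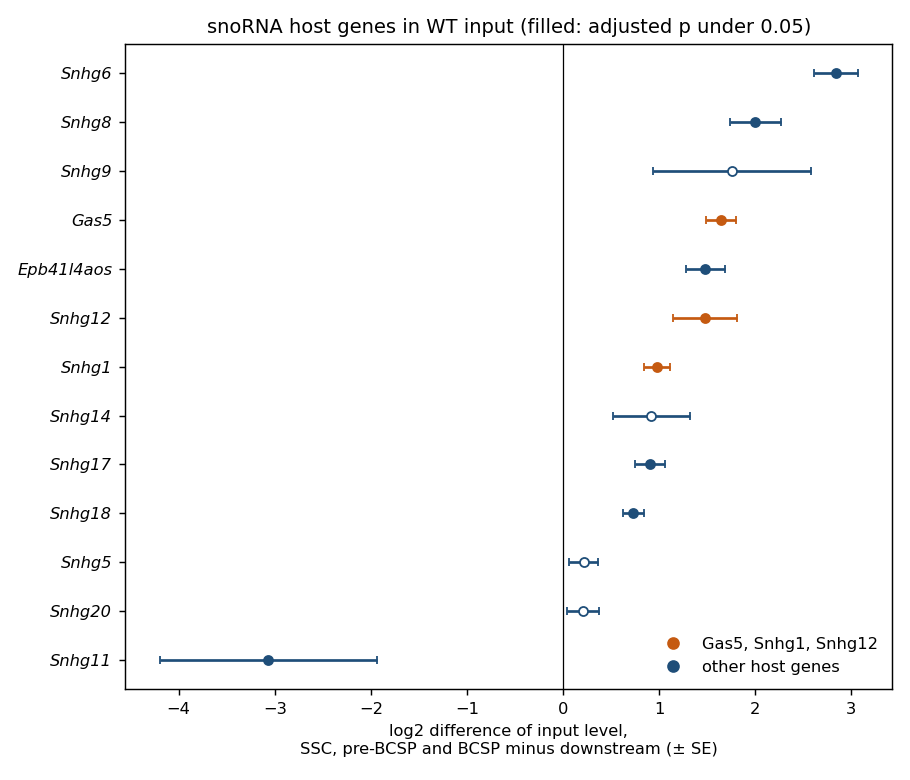
Log2 difference in input between WT stem and progenitor and downstream populations for the 13 snoRNA host genes tested, the 3 members and 10 others, with bars for 1 SE and filled points where the adjusted p was under 0.05. The values run from -3.07 for Snhg11 to 2.84 for Snhg6, with Gas5, Snhg12 and Snhg1 between 0.98 and 1.64.

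Over the 8 population means, the input levels of Gas5 and Snhg12 (Pearson r = 0.970), Gas5 and Snhg1 (0.947) and Gas5 and Neat1 (0.918) ran together, Neat1 and Miat ran opposite (-0.927), and Malat1 stood apart, with r between -0.205 and 0.510 to the others. The genes most like each member over the same 8 points were Kptn (0.995) and Rps27 (0.992), which encodes a ribosomal protein, for Gas5, Rpl26 (0.998), Psmd7 (0.996) and Rbm8a (0.991) for Snhg12, and Eny2 (0.996), Zranb1 (0.991) and Med20 (0.990) for Snhg1. For Neat1 they were Ascc1 (0.989), Slc38a9 (0.988) and Igbp1 (0.985), for Malat1 Med13 (0.983), Ncoa1 (0.957) and the mitochondrial mt-Co1 (0.933), and for Miat Prdx2 (0.982), C1qtnf1 (0.965) and Myh11 (0.963). These are descriptions over 8 points that share libraries and a division into stem and downstream populations, and they were picked as the highest among about 8881 genes.

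The second comparison asked which of the RNAs were enriched in the m6A pull-down in each WT population, at a log2 ratio of IP to input over 1 and unadjusted p under 0.05 by edgeR, which are the limits of the study. Malat1, Gas5, Snhg1 and Snhg12 were enriched nearly throughout, and Neat1 and Miat in no population. Over the 8 populations 31 of 46 member tests were called enriched, and 23 when the adjusted p was held to 0.05. With the adjusted p so held, 623 of 15780 genes were enriched in SSC, 1252 of 16367 in pre-BCSP and 136 of 16040 in BCSP. They were 876 of 18564 in PCP, 1409 of 15923 in THY and 1577 of 18425 in BLSP. In 6C3 they were 1699 of 16904 and in HEC 1764 of 16541. At the unadjusted p, the share of all genes called enriched was 10.4% in SSC, 12% in pre-BCSP, 6.67% in BCSP, 10.6% in PCP, 12.4% in both THY and BLSP, 13.5% in HEC and 14.5% in 6C3. A log2 ratio under -1 at the same p was found in 0 of 46 member tests, and the share of all genes so depleted was 13.9% in SSC, 11.7% in BCSP, 14.8% in pre-BCSP and BLSP, 14.2% in HEC, 14.5% in PCP, 15% in THY and 17% in 6C3.

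Malat1 was enriched in 8 of 8 populations. Its log2 ratio in single replicates was 1.54 and 1.23 in SSC, 1.41 and 1.76 in pre-BCSP, 0.91 and 1.31 in BCSP, with 2.93 and 1.67 in 6C3, 0.97 and 1.504 in HEC, 1.23 and 1.36 in BLSP, 1.59 and 1.25 in THY and 1.59 and 1.20 in PCP. The fitted ratio ran from 1.04 in BCSP (SE 0.22, edgeR adjusted p = 0.05781) to 2.28 in 6C3 (SE 0.39, edgeR adjusted p = 0.006448). The high value in 6C3 rested on the replicate that had the lowest Malat1 input: there the ratio was 7.64-fold, against 3.19-fold in the other replicate. Without the second BCSP input library, the ratio in BCSP was 0.82, under the limit.

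Gas5 was enriched in 7 of 8 populations, and in SSC its ratio of 0.89 (SE 0.20, edgeR adjusted p = 0.05368) lay under the limit of 1. In single replicates the log2 ratio was 0.94 and 0.79 in SSC, 1.00 and 1.17 in pre-BCSP and 1.16 and 1.43 in BCSP, and downstream it ran from 1.096 to 2.31. The call in BCSP did not hold without its second input library (0.91), nor that in pre-BCSP without its first IP library (0.89) or its second input library (0.84).

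Snhg1 held 1 of the searched strings in the transcript used, which does not reach the RefSeq start, and that string lay within a snoRNA gene. Snhg1 was enriched in 8 of 8 populations, at adjusted p under 0.05 in each. Its ratios ran from 1.27 in pre-BCSP (SE 0.28, edgeR adjusted p = 0.03231) to 2.204 in PCP (SE 0.32, edgeR adjusted p = 0.0144). Leaving out the first pre-BCSP IP library brought the ratio there to 0.95. Snhg12 was called in 8 of 8, with ratios from 1.73 in BCSP to 2.40 in PCP, but at its low counts only the calls in pre-BCSP (adjusted p = 0.04424 by edgeR) and HEC (0.01692) passed the adjusted threshold. Its calls in SSC, BCSP, PCP, THY, BLSP and 6C3 were lost without 1 input library of the population, or without the second IP library in 6C3. All of the 16 WT replicate ratios of Malat1, Gas5, Snhg1 and Snhg12 were above 0.

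Neat1, whose longest annotated transcript held more GGACT strings in all than that of Malat1, was not enriched. Its fitted log2 ratio lay between -0.64 in PCP and -0.04 in SSC. Which of its 4 annotated transcripts were present could not be told from counts per gene. Its replicate ratios were -0.22 and 0.07 in SSC, -0.35 and -0.55 in pre-BCSP, 0.08 and -0.48 in BCSP, with -0.25 and -0.47 in HEC, -0.29 and -0.14 in 6C3, 0.01 and -0.37 in BLSP, -0.46 and -0.23 in THY and -0.71 and -0.68 in PCP. Of 16 replicate ratios 3 were above 0, and none exceeded 0.08. Miat was tested in 6 populations, with ratios from -0.04 to 1.21, and was not called in any, except in THY once the second THY IP library was left out (1.35). Its IP libraries held 0 to 32 reads in stem and progenitor cells and 14 to 104 downstream, which is too few to place its ratio. By the same limits, the other snoRNA hosts were enriched in 0 of 9 tested in SSC, 3 of 9 in pre-BCSP, 4 of 9 in BCSP, HEC and THY, 3 of 11 in PCP, 5 of 8 in 6C3 and 6 of 9 in BLSP, and in no population was one depleted. Snhg18 and Snhg8 were each enriched in 7 of 8 populations. Of the other nuclear lncRNAs, 3 of 14 were enriched in SSC, pre-BCSP and HEC, 1 of 13 in BCSP, 5 of 14 in PCP, 5 of 13 in THY, 4 of 13 in 6C3 and 4 of 15 in BLSP. Kcnq1ot1, a nuclear RNA of an imprinted cluster, was enriched in 7 of 8 populations. In the opposite direction, 0 to 3 of these lncRNAs were depleted in a population, with Tug1 depleted in 7 of 8 and 2900097C17Rik in 4 of 8.

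**Figure D4:**
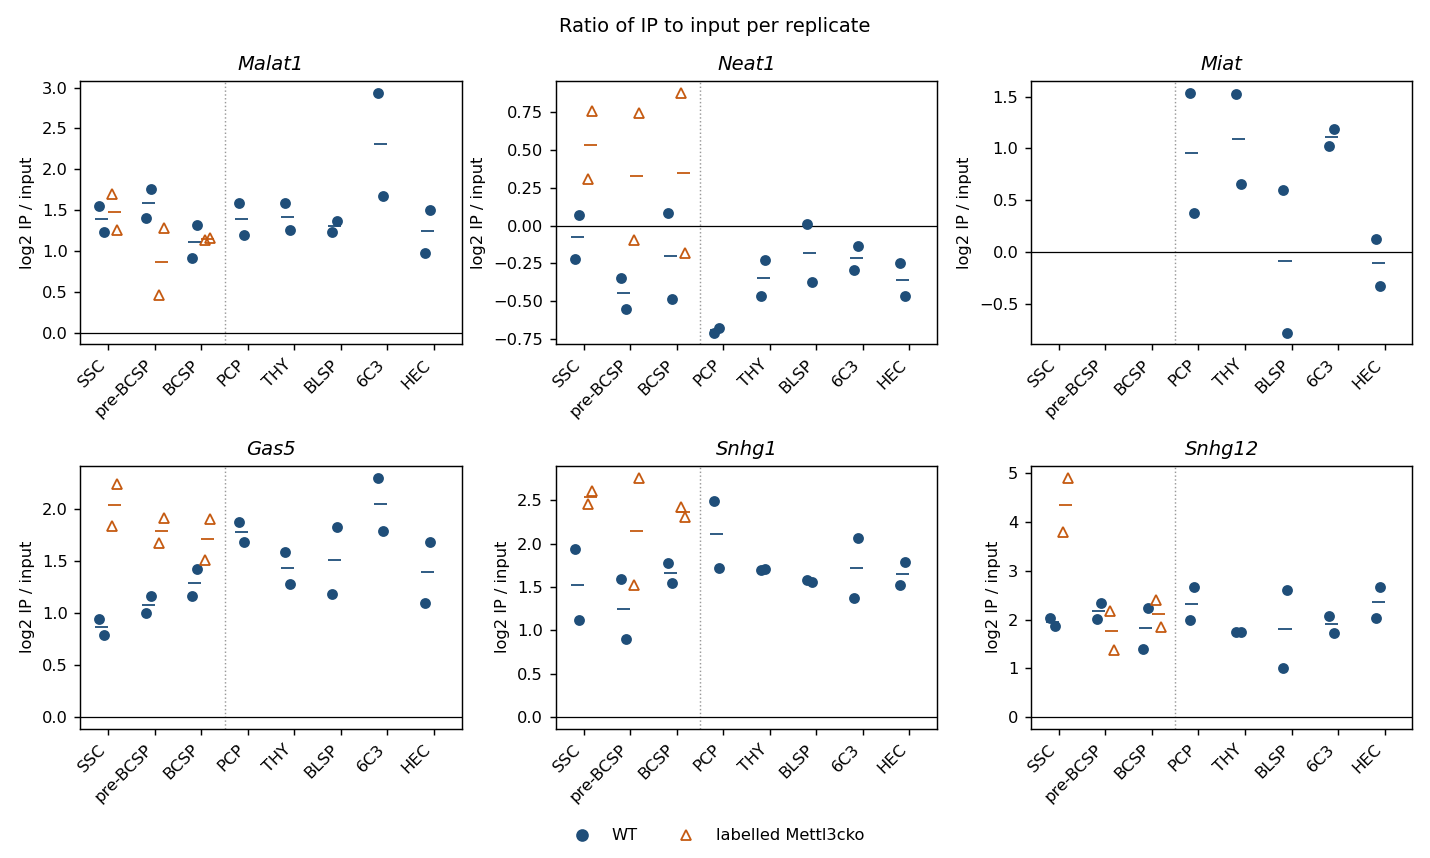
Log2 ratio of IP to input of each lncRNA in each replicate of the 8 WT populations (filled circles) and of the Mettl3cko populations (open triangles), with a short line for the mean of 2 replicates and a line at 0, and with Miat drawn only for downstream WT populations because it had few or no reads elsewhere. Malat1, Gas5, Snhg1 and Snhg12 lie above 0 in all WT replicates and Neat1 lies between -0.71 and 0.08.

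Whether the ratio of IP to input differed between the populations was tested in 1 fit of the 32 WT libraries over 25365 genes. At adjusted p under 0.05 by edgeR, 0 of 6 members were called lower in stem and progenitor cells and 0 higher, where 1.77% and 3.06% of all genes were, and 0 of 6 differed among the 8 populations, where 0.485% of all genes did. At unadjusted p under 0.05, 1 of 6 members passed in the contrast, Gas5, where 3989 of 25365 genes did. In the test among 8 populations 0 of 6 members passed, where 2022 genes did. The Gas5 ratio was lower in stem and progenitor cells by the fitted value of -0.51 (SE 0.20, edgeR adjusted p = 0.1624). The mitochondrial share of counts in the WT IP libraries was 1.56 to 2.92% in stem and progenitor cells and 4.53 to 9.10% downstream, without overlap, and its part in this difference was not tested. With the replicate number as a block, which pairs IP and input from the same sorted cells, the adjusted p of Gas5 was 0.02165 at -0.52, and by DESeq2 it was 0.01208 at -0.67. Malat1 passed in the test among 8 populations with the replicate block (edgeR adjusted p = 0.01801, against 0.8305 without it), and by DESeq2 none of the 6 passed that test after adjustment (0.2871 for Malat1, 0.1869 for Gas5). Without the first WT BCSP IP library, the difference of Gas5 was -0.69 (edgeR adjusted p = 0.0456).

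The third comparison set the libraries labelled Mettl3cko against WT in input RNA of SSC, pre-BCSP and BCSP. Neat1 was lower in all 3 populations, and the other members showed no call. With the limits of the study, a log2 change beyond 0.5 at unadjusted p under 0.05, 3 of 16 member tests were called lower, all of them Neat1, and 0 higher. The shares of all genes called lower were 7.07% in SSC, 4.48% in pre-BCSP and 5.72% in BCSP, and called higher 6.96%, 3.88% and 7.22%.

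In SSC, Neat1 was at 307 and 304 CPM in WT and 192 and 233 CPM in Mettl3cko. In pre-BCSP it was at 311 and 329.6 CPM in WT and 134 and 139.98 CPM in Mettl3cko, and in BCSP at 364 and 344 against 168 and 171 CPM. The Mettl3cko libraries lay below both WT libraries in each of the 3 populations, as they did for 4.35% of all genes. The log2 change was -0.52 in SSC (SE 0.19, edgeR adjusted p = 0.2636), -1.21 in pre-BCSP (SE 0.20, edgeR adjusted p = 0.5693) and -1.07 in BCSP (SE 0.20, edgeR adjusted p = 0.2059).

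After adjustment by edgeR, none of the single-population changes of Neat1 passed. Neither did any other gene, of 16100 tested in SSC, 16017 in pre-BCSP and 16322 in BCSP. DESeq2 gave Neat1 an adjusted p of 0.0001516 in pre-BCSP, 7.909e-05 in BCSP and 0.1887 in SSC. At adjusted p under 0.05 DESeq2 passed 158 genes in pre-BCSP, 548 in BCSP and 661 in SSC. In SSC the call stood at the limit of 0.5, and it was lost by DESeq2 (-0.50), and without the first Mettl3cko input library (-0.37), the first WT input library (-0.51, edgeR adjusted p = 0.5939) or the second (-0.52, edgeR adjusted p = 0.8413). DESeq2 called Gas5 lower in BCSP in its place (-0.55). In the fit over the 3 populations together, Neat1 was the member called, at -0.93 (SE 0.13, edgeR adjusted p = 0.001192), or 0.526 of the WT level, where 2.64% of all genes were called lower and 3.83% higher. Whether the change of Neat1 differed among the populations gave an edgeR adjusted p of 0.9414, and Neat1 was the 1 of 6 members under 0.05 before adjustment. At adjusted p under 0.05 that test called 0 of 18655 genes (0%) by edgeR, with 839 at unadjusted p under 0.05, and 41 by DESeq2.

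For Malat1 the change over the 3 populations was -0.14 (SE 0.11, edgeR adjusted p = 0.5434), for Snhg1 -0.10 (SE 0.15, 0.7757) and for Snhg12 -0.01 (SE 0.32, 0.9917). Gas5 was at 162 and 191 CPM in WT SSC and 125 and 128 CPM in Mettl3cko SSC, where the Mettl3cko libraries were lower without overlap, and its ranges overlapped in pre-BCSP and BCSP. Over the 3 populations Gas5 changed by -0.37 (SE 0.15, edgeR adjusted p = 0.1568). In SSC its change of -0.48 lay just inside the limit of 0.5, and it passed without the first WT SSC input library (-0.59). Without the second WT BCSP input library the changes of Gas5 (-0.86) and Malat1 (-0.61) in BCSP both passed, which made 5 member tests lower in place of 3. Miat had 2, 0, 0, 0, 0 and 6 reads in the 6 Mettl3cko input libraries, too few for a comparison.

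**Figure D5:**
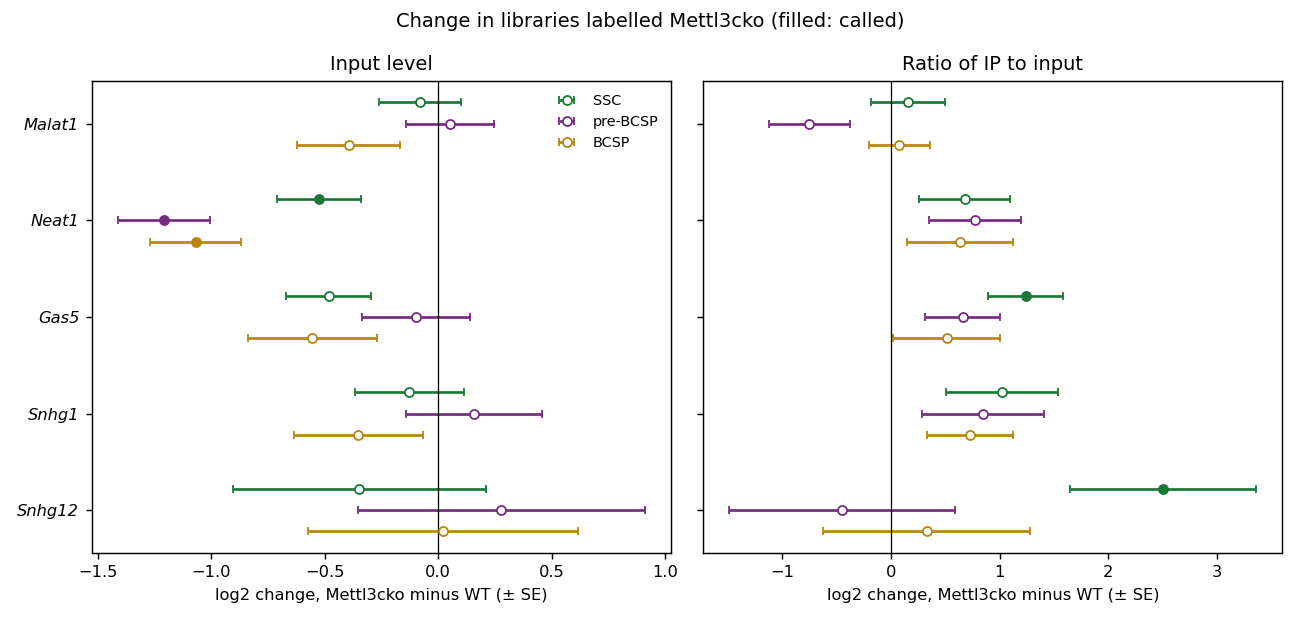
Log2 change of 5 lncRNAs in Mettl3cko against WT, for the input level and for the ratio of IP to input, in SSC, pre-BCSP and BCSP, with bars for 1 SE from edgeR and filled points for changes past the limits. Neat1 input lies between -1.21 and -0.52, and the ratio of Gas5 lies between 0.52 and 1.24 while that of Malat1 spans -0.75 to 0.16.

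The blood marker sum was also higher in the libraries labelled Mettl3cko, at 19.7 to 55.8 CPM in input against 6.08 to 17.7 CPM in WT stem and progenitor libraries, with Ptprc at 0 in Mettl3cko SSC and BCSP. The blood sums of the genotypes did not overlap in any of the 3 populations. The cartilage sum was 56091 to 63505 CPM in Mettl3cko pre-BCSP against 90990.2 to 94846 CPM in WT, and the genotypes overlapped in SSC and BCSP. The bone sum was 16206 to 21681 CPM in Mettl3cko BCSP against 10768 to 14821 CPM in WT and 12671 to 14819 CPM against 11822 to 12112 CPM in pre-BCSP, with overlap in SSC. At far lower levels, the muscle sum was higher in Mettl3cko without overlap in BCSP (7.79 to 13.4 CPM against 3.36 to 3.44 CPM) and pre-BCSP (4.74 to 5.12 CPM against 0.962 to 4.31 CPM), and the endothelial sum in SSC (3.86 to 4.59 CPM against 1.08 to 2.26 CPM). The part of these shifts in the fall of Neat1 was not tested.

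Around the members, 5 of 12 genes of the snoRNP list were higher in Mettl3cko over the 3 populations and 0 lower at adjusted p under 0.05 by edgeR, where 3.83% of all genes were higher and 2.64% lower. The other 7 did not pass, and the median of the list was 0.37 against -0.04 for all genes. Nop56 met the limits in each population, with changes of 0.86, 0.74 and 0.77 on the log2 scale in SSC, pre-BCSP and BCSP, and was higher by 0.79 over all 3 (SE 0.10, edgeR adjusted p = 0.0008233), and Nhp2 (0.88), Ruvbl1 (0.55), Ruvbl2 (0.57) and Gar1 were the others. The other snoRNA hosts were called in neither direction over the 3 populations (0 of 10 tested, median -0.13). Of 15 other nuclear lncRNAs, 1 was called lower and 1 higher: Meg3 fell by 0.61 on the log2 scale (SE 0.12, edgeR adjusted p = 0.01046) and Pvt1 rose by 0.61. Of 10 decay factors 1 was called, Upf3b, which was lower (-0.89, SE 0.18, edgeR adjusted p = 0.009499). Of 4 readers 1 was called, Hnrnpc, higher (0.56), and of 8 paraspeckle proteins 1, Hnrnpk, higher (0.38). Of 6 nuclear speckle proteins 0 were called over the 3 populations. Srsf2 met the unadjusted limits in SSC (0.66) and pre-BCSP (1.16), as did the decay factor Smg5 in SSC (0.51) and BCSP (0.74).

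The last comparison asked whether the ratio of IP to input changed between the genotypes. Gas5 and Snhg12 had a higher ratio in Mettl3cko SSC, and these were the 2 of 16 member tests called higher at a log2 change beyond 0.5 and unadjusted p under 0.05, where 3.26% of all genes were called higher in SSC, 2.06% in pre-BCSP and 2.49% in BCSP. In the other direction, 0 of 16 member tests were called lower, where 11.3% of all genes were in SSC, 9.87% in pre-BCSP and 7.82% in BCSP. The median change of all genes was -0.16 in SSC, -0.26 in pre-BCSP and -0.10 in BCSP. The ratio is relative, because libraries were scaled to one another and not to a known amount of m6A. A higher ratio in Mettl3cko therefore does not show a gain of m6A on an RNA.

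The replicate log2 ratios of Gas5 were 0.94 and 0.79 in WT SSC and 1.83 and 2.24 in Mettl3cko SSC. In pre-BCSP they were 1.00 and 1.17 in WT and 1.68 and 1.91 in Mettl3cko, and in BCSP 1.16 and 1.43 against 1.52 and 1.91. The Mettl3cko ratios lay above both WT ratios in each of the 3 populations, as they did for 1.98% of all genes. The change was 1.24 in SSC (SE 0.35, edgeR adjusted p = 0.2018), 0.66 in pre-BCSP (SE 0.34, edgeR adjusted p = 0.4953) and 0.52 in BCSP (SE 0.49, edgeR adjusted p = 0.8103). With the replicate block that pairs IP and input, the change in pre-BCSP also met the limits (0.64, edgeR adjusted p = 0.5937).

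Snhg12 had 243 and 411 IP reads in WT SSC and 896 and 1900 in Mettl3cko SSC, with 76 to 118 input reads in all 4. Its ratios were 2.03 and 1.86 in WT and 3.80 and 4.91 in Mettl3cko, and the change was 2.503 (SE 0.86, edgeR adjusted p = 0.2563). It did not hold with the replicate block (2.46, edgeR adjusted p = 0.7188), nor without any one of 5 of the 8 libraries of this fit, namely the first or the second Mettl3cko input, the first or the second WT input, or the first WT IP (changes of 2.26 to 2.74). In pre-BCSP and BCSP the changes were -0.45 (SE 1.04) and 0.33 (SE 0.95).

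Over the 3 populations together, no member passed after adjustment by edgeR, where 0.643% of all genes were called higher and 3.30% lower. At unadjusted p under 0.05, 3 of 6 members passed, as did 3453 of 20360 genes in either direction. The median change of all genes was -0.39. The changes were 0.80 for Gas5 (SE 0.24, edgeR adjusted p = 0.07477), 0.86 for Snhg1 (SE 0.30, adjusted p = 0.1255) and 0.69 for Neat1 (SE 0.27, adjusted p = 0.1823), and DESeq2 called 2 of them, Gas5 (adjusted p = 0.03045) and Snhg1 (0.01523). The call of Gas5 by edgeR was gained without the first Mettl3cko IP library of SSC (0.87), pre-BCSP (0.85) or BCSP (0.92), and that of Snhg1 without the first Mettl3cko IP library of pre-BCSP (0.98). Malat1 changed by -0.17 (SE 0.18, edgeR adjusted p = 0.8594), and its pre-BCSP ratios in Mettl3cko were 0.46 and 1.28 against 1.41 and 1.76 in WT (change -0.75, edgeR adjusted p = 0.4745). Without the second Mettl3cko pre-BCSP IP library that change was -1.14 and met the limits. Leaving out the first Mettl3cko IP library of SSC made 4 tests higher, with Neat1 (1.01) and Snhg1 (1.08) added in SSC, and so did leaving out that of pre-BCSP, with Neat1 (1.17) and Snhg1 (1.21) added there. The ratio and the input comparisons of a gene share their input libraries, so that the lower Neat1 input and its higher ratio are not separate measurements.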

How the data were processed

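SLIM-seq libraries of IP and input RNA were analysed in 8 WT populations and 3 Mettl3cko populations, with 2 replicates each. The authors trimmed reads with fastp 0.20.1, aligned them to GRCm38 with HISAT2 2.2.1 and counted them per gene with featureCounts 2.0.1, after a library protocol based on Smart-seq2, and deposited counts without normalization. The annotation and strand setting of the counting are not given in the sources used here. The authors' deposited comparison tables of Mettl3KO and WT SSC (fold changes, their errors and p-values) were not used. The table had 46959 entries, of which 128 with 2 repeated date-like names were left out (at most 0.39% of a library's counts).

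Tests used edgeR 4.0.16 in R 4.3.3, by quasi-likelihood after TMM scaling and filterByExpr, with Benjamini-Hochberg adjustment over all genes tested, checked on simulated counts. DESeq2 1.42.0, its size factors, library size alone, no filter, a minimum of 1 CPM in 2 libraries, the replicate block, adjusted p in place of unadjusted p and leaving out each library were alternatives. CPM used TMM-scaled totals, and replicate log2 ratios a prior count of 2. Replicates are independent experiments by the study's methods, and in all 22 conditions they differed beyond counting error. IP and input of the same number came from the same sorted cells, and their deviations from group means correlated at 0.0169 to 0.573, over 0.1 in 9 of 11 conditions. Between WT and Mettl3cko inputs of the same number the correlation was -0.0672 to 0.0615. This cannot tell whether they shared a source, because IP and input from the same sorted cells gave values as low as 0.0169. The batch field was the same for all libraries. Counting error is smallest for Malat1 and largest for Miat and Snhg12, and 3 reads was taken as the limit of detection in a library. Genes named were the 6 members in every comparison, genes of the companion lists called in the stem against downstream contrast or in at least 2 Mettl3cko input comparisons, and the 3 genes most like each member. Members, lists and tests were chosen with earlier results of these data known. Gar1, and the IP ratios of Kcnq1ot1, Snhg8, Snhg18, Tug1 and 2900097C17Rik, were named after their values were seen. Some genes that the rule would name are not reported here.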

Additional observations from a re-analysis of the deposited data

How the results depend on the processing

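The members called in input between stem and progenitor and downstream populations were 4 higher and 1 lower under every alternative run, and Neat1 was called lower over the 3 Mettl3cko populations in each. These counts moved by more than 1.5 times. Members whose ratio was lower in stem and progenitor cells went from 0 to 1 (Gas5) by DESeq2, with its size factors, without a filter and with the replicate block, and members whose ratio differed among 8 populations from 0 to 1 without a filter and with the replicate block. Input tests lower in Mettl3cko went from 3 to 0 with adjusted p. Ratio tests higher in Mettl3cko went from 2 to 1 without a filter and to 0 with adjusted p, and tests lower from 0 to 1 without a filter (Malat1 in pre-BCSP). In these single-population tests between genotypes, 0 of all genes passed with adjusted p by edgeR. Members with a higher ratio over the 3 populations went from 0 to 2 by DESeq2. Smaller moves were those of members differing in input among 8 populations, from 4 to 6 without a filter and by DESeq2 (Malat1 and Snhg12 added, but DESeq2 gave Malat1 a p of 0, which was not relied on) and to 5 with library size alone (Malat1), a minimum of 1 CPM or the replicate block (Snhg12), of ratio tests higher in Mettl3cko, from 2 to 3 by DESeq2 (Snhg1 in SSC, 1.04), and of input tests lower in Mettl3cko, from 3 to 2 with DESeq2's size factors and to 4 with library size alone or without a filter. On leaving out 1 library, the enriched WT tests were 28 to 32, members differing in input among 8 populations 3 to 5, members with a lower ratio in stem and progenitor cells 0 to 1, input tests lower in Mettl3cko 2 to 5, ratio tests higher 1 to 4 and lower 0 to 1, and members with a higher ratio over the 3 populations 0 to 2. The cause of these changes was not tested. No called value changed sign. Of the alternative values of single genes 1522 kept direction and call, 27 gained a call, 38 lost one and 56 uncalled values changed sign. Scaling by library size alone moved the median of all genes by -0.15 in the THY ratio and by -0.18 in the SSC ratio between genotypes, and DESeq2's size factors by -0.16 in the ratio between stem and downstream cells. The replicate block changed no call of a member beyond those given for Gas5, Malat1 and Snhg12, apart from Snhg12 in the test of input among 8 populations (edgeR adjusted p = 0.04124). Fits over several populations without a library kept the genes and dispersions of the full fit. Depth limited Miat and Snhg12.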
